A study of Canis lupus familiaris with 2 samples.

Results

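ATP-binding cassette (ABC) genes were taken as the features whose symbol begins with ABC, a subfamily letter from A to G and a digit, which gave 45 of the 23510 features listed. RNA came from MDCK cells, a long-established dog kidney line with the form of a columnar epithelium. Cells were grown on semipermeable membranes in EMEM with 10% serum, under 2-cm-high medium (2 cmH2O, the culture without added pressure) or 50-cm-high medium (50 cmH2O), and the labels place RNA extraction at day 3. These cultures are called the cultures at 2 cm and at 50 cm. Each medium height had 1 culture, so no value below has replicates, no difference could be set against replicate error and no test was possible. Values are FPKM, fragments on a gene divided by its exon length and by the size of the library, which are thus scaled per length and can be set side by side between genes, but the read numbers behind them are unknown. The epithelial markers KRT8, KRT18, CDH1, EPCAM and PAX8 lay between 57.6 and 1641 FPKM in both cultures. The kidney cadherin CDH16 was low, with 1.96 FPKM at 2 cm and 0.676 FPKM at 50 cm, and none of the fibroblast, blood or endothelial markers listed passed 0.25 FPKM in either culture. The family was selected on symbols, but the setting of ABCC2 beside its relatives was chosen by its measured ratio, which was already known to be large, so its values are a description and lend no support to any statement about the family.

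ABC proteins couple the binding and hydrolysis of ATP to movement of a substrate across a membrane. Subfamily A moves mainly lipids, B holds drug and phospholipid pumps together with mitochondrial carriers, C holds pumps for organic anions and conjugated metabolites, D serves peroxisomes and lysosomes, and G moves sterols and drugs. Subfamilies E and F have the ATP-binding domains without a membrane domain and act on ribosomes. In the kidney tubule, apical pumps such as ABCC2, ABCC4 and ABCB1 release compounds into the lumen, whereas ABCC1 and ABCC3 lie on the basolateral side.

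Among the ABC genes above 1 FPKM in both cultures, all but ABCC2 differed by less than 2-fold. Of the 45 members, 22 exceeded 1 FPKM in both cultures, 11 of them higher and 11 lower at 50 cm. Of all 11057 features above this minimum, 5820 were higher and 5236 lower. A ratio of 50-cm to 2-cm FPKM above 2 or below 0.5 was counted as a change. By this rule 1 of the 22 members changed, ABCC2, which was higher, and 0 were lower, against a background of 1.67% of all 11057 features above 1 FPKM in both cultures (0.389% higher and 1.28% lower). The median log2 ratio of the 22 members was 0.01, as was that of all 11057 features. Differences of less than 1.5-fold were found for 20 members (90.9%), compared with 92.8% of all features. Without ABCC2 the 21 others ranged from -0.60 to 0.43 on the log2 scale. Summed over the 45 members, FPKM was 507 at 2 cm and 539 at 50 cm.

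**Figure D1:**
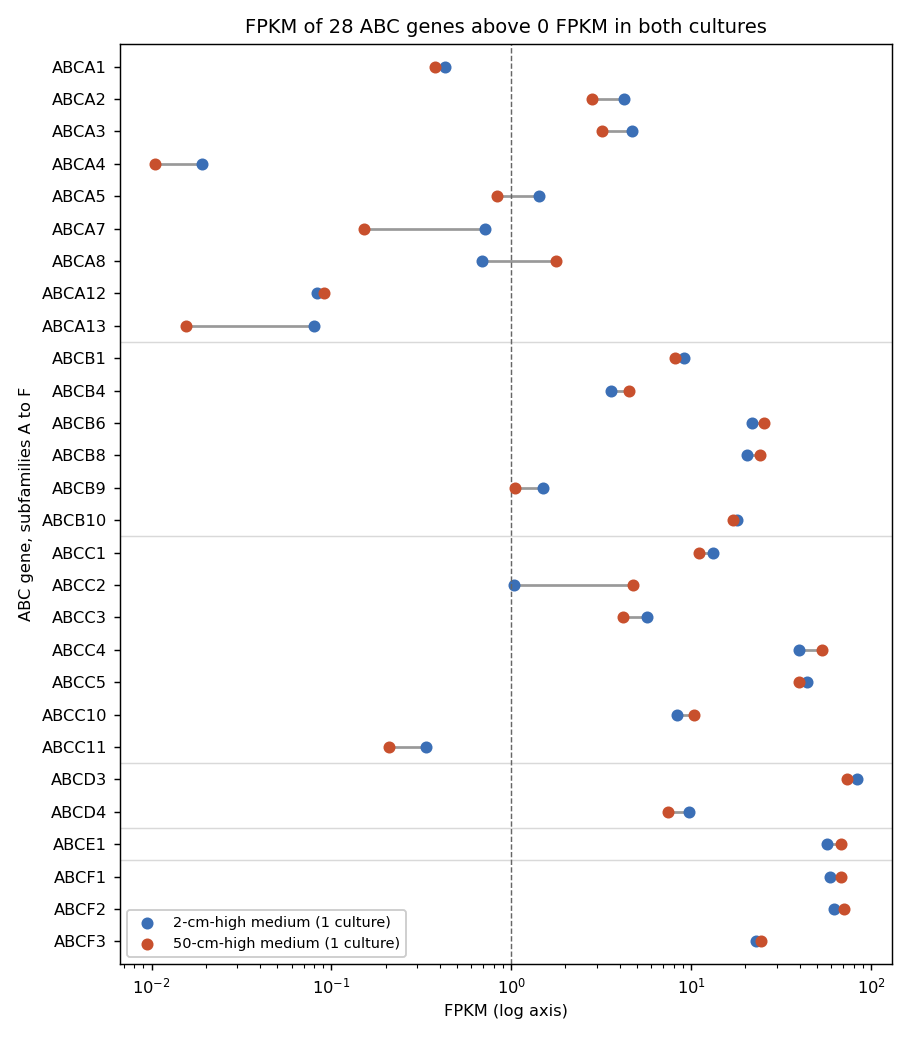
FPKM on a log axis of 28 of the 30 ABC genes above 0 FPKM in both cultures, by subfamily, with 1 point per culture joined by a line and a dashed line at 1 FPKM. The points of most genes lie close together, while ABCC2 and ABCA8 were higher at 50 cm and ABCA7 and ABCA13, both under 1 FPKM, were lower.

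ABCC2 encodes a pump of the apical membrane that exports glutathione, glucuronide and sulfate conjugates. Its level was 1.03 FPKM at 2 cm and 4.73 FPKM at 50 cm, a log2 ratio of 2.196. As a yardstick, the scaled median absolute deviation of log2 ratios was taken over the 500 features of most similar level, which gave 0.45, so the ABCC2 ratio lay 4.8 such deviations from 0. This deviation is a spread across genes and not replicate error. Whether more cells contained ABCC2 RNA or each cell contained more of it cannot be told apart in RNA from a whole culture. The next highest log2 ratio in the family was 0.43, that of ABCC4.

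ABCC2 went from rank 23 to rank 16 of the 45 members by FPKM. Its share of the summed FPKM of subfamily C was 0.918% at 2 cm and 3.83% at 50 cm. ABCC2 therefore remained a minor transcript of its subfamily in both cultures. The level of ABCC3, a basolateral pump for overlapping substrates, was 5.49 times that of ABCC2 at 2 cm but 0.88 times that of ABCC2 at 50 cm, so the order of these pumps was exchanged between the 2 cultures. ABCC1 was 12.9 times as abundant as ABCC2 at 2 cm and 2.34 times as abundant at 50 cm. For ABCC4 these quotients were 38.3 and 11.2.

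**Figure D2:**
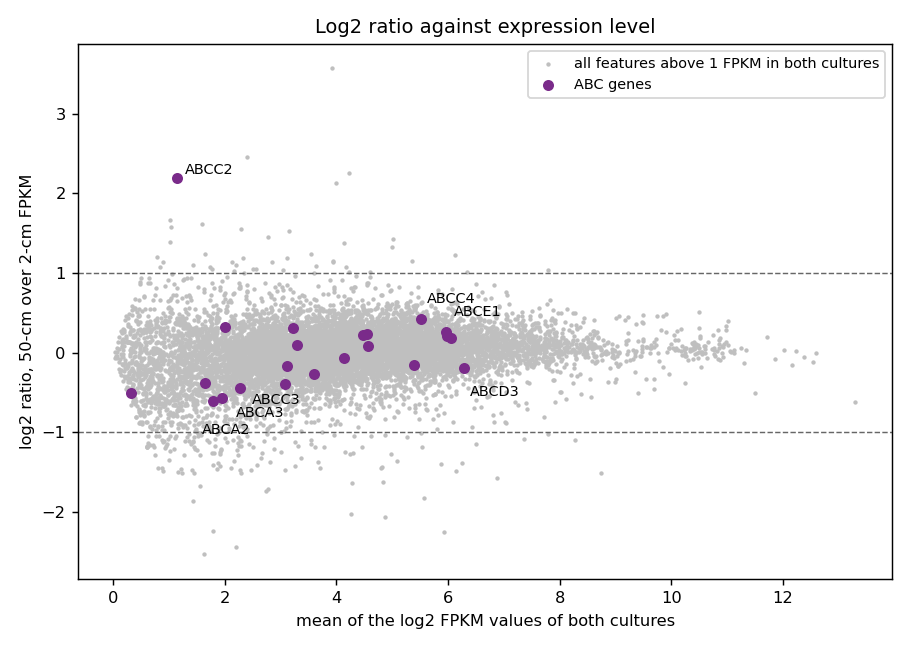
Log2 ratio of 50-cm over 2-cm FPKM (vertical axis) against the mean log2 FPKM of both cultures (horizontal axis), with the 22 ABC genes above 1 FPKM in both cultures over all 11057 such features and dashed lines at a 2-fold change. ABCC2 lies at 2.196, and the other 21 ABC genes lie inside the dashed lines.

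The ABCC2 ratio rests on a low value at 2 cm, barely above the 1 FPKM minimum. The FPKM value of a read was 9.77% larger at 50 cm, as seen from the commonest ratio of features below 0.1 FPKM in both. After this step was divided out, ratios were compared with quotients of whole read numbers up to 100, to within 0.005%. Such quotients are given with the reads at 50 cm first. The ABCC2 ratio lay on none of them. With a pseudocount of 1 FPKM added to both values, the log2 ratio of ABCC2 was 1.496.

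The order of rows in the files also bears on ABCC2. Features were listed alphabetically, except that features past 2-fold had been moved. With the 1603 features past 2-fold and above 0.1 FPKM in either culture set aside, the remaining 21907 were in alphabetical order with 0 exceptions. The 730 features past 2-fold and above 0.1 FPKM in both cultures followed each other by falling ratio in 97.3% of 729 steps. ABCC2 stood between C20H19orf53 and C20H19orf59, and its alphabetical place, after ABCC12 and before ABCC3, was held by KRT14. ABCA8 stood after FAXC and ABCA7 after SPAM1, and all other ABC genes were in their alphabetical places. ABCC2, ABCA8 and ABCA7 stood at positions 22, 105 and 705 among the 730, which were also their ranks by ratio. Symbol and ratio had thus been placed together, but whether every symbol kept its own values when rows were moved was not tested.

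The other organic anion pumps of subfamily C showed no common direction. ABCC5 and ABCC4, which export cyclic nucleotides among other anions, were by far the most abundant. ABCC4 had 39.6 FPKM at 2 cm and 53.2 FPKM at 50 cm (log2 ratio 0.43, or 2.4 deviations among features of similar level). ABCC5 had 44.3 and 39.9 FPKM, respectively, so that ABCC4 replaced ABCC5 as the most abundant member of the subfamily. ABCC10, a pump for lipophilic drugs, had 8.33 FPKM at 2 cm and 10.4 FPKM at 50 cm. ABCC1 and ABCC3 were both lower at 50 cm. ABCC1 had 13.3 FPKM at 2 cm and 11.1 FPKM at 50 cm (log2 ratio -0.27), and ABCC3 had 5.67 and 4.17 FPKM (log2 ratio -0.44). These differences were 1.2 and 1.5 deviations among features of similar level. ABCC11 was under 1 FPKM, with 0.336 FPKM at 2 cm and 0.208 FPKM at 50 cm, a ratio that 13 reads against 23, or the same multiple of both, would give. ABCC6, ABCC12 and the sulfonylurea receptors ABCC8 and ABCC9, regulatory subunits of potassium channels, were listed at 0 in both cultures, as were the channel subunits KCNJ8 and KCNJ11. A listed zero does not show that RNA was absent, since ATP5O, a subunit gene of the ATP synthase, was also listed at 0 FPKM in both cultures.

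In subfamily B, all 7 members above 1 FPKM in both cultures differed by less than 1.5-fold. ABCB1 encodes P-glycoprotein, the apical multidrug pump for which MDCK cells are widely used as a test system. Its level was 9.15 FPKM at 2 cm and 8.16 FPKM at 50 cm, a log2 ratio of -0.16, which was 0.6 deviations among features of similar level. ABCB4, its close relative and a phosphatidylcholine translocator of bile canaliculi, had 3.58 FPKM at 2 cm and 4.48 FPKM at 50 cm. ABCB1 and ABCB4 are similar in sequence, and how reads common to both were divided is not stated. ABCB11, the bile salt export pump, had 0.0709 FPKM at 2 cm and was listed at 0 at 50 cm, and ABCB5 was listed at 0 in both.

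The mitochondrial members of subfamily B were well expressed and nearly level between the cultures. ABCB6, a porphyrin transporter, had 21.6 FPKM at 2 cm and 25.5 FPKM at 50 cm. ABCB8 had 20.6 and 24.0 FPKM, and ABCB10, which acts in heme synthesis, had 18.02 and 17.2 FPKM, respectively. The log2 ratios of the mitochondrial members ran from -0.07 to 0.24, and 3 of the 4 were higher at 50 cm. ABCB9, a peptide transporter of lysosomes, was close to the minimum and lower at 50 cm, with 1.49 FPKM at 2 cm and 1.05 FPKM at 50 cm.

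The members of subfamilies D and A above 1 FPKM in both cultures were lower at 50 cm, as were 5236 of all 11057 features. All 3 members of subfamily D above 1 FPKM were lower, each by less than 1.5-fold. ABCD3, which imports branched and long-chain acyl groups into peroxisomes, was the most abundant ABC gene in both cultures, with 83.9 FPKM at 2 cm and 73.3 FPKM at 50 cm (log2 ratio -0.19). ABCD4, which acts in the release of cobalamin from lysosomes, had 9.69 FPKM at 2 cm and 7.41 FPKM at 50 cm. Their log2 ratios lay 0.96 and 1.5 deviations below 0, respectively. ABCD2 was listed at 0 in both cultures.

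In subfamily A, ABCA2 and ABCA3 were above 1 FPKM in both cultures, and they had the lowest log2 ratios of the 22 members. ABCA2, an endolysosomal protein linked to sterol trafficking, had 4.24 FPKM at 2 cm and 2.80 FPKM at 50 cm (log2 ratio -0.60). ABCA3, which loads phospholipid into the lamellar bodies of lung epithelium, had 4.71 FPKM at 2 cm and 3.19 FPKM at 50 cm (log2 ratio -0.56). Both lay 1.5 deviations below 0. ABCA5 passed 1 FPKM only at 2 cm, with 1.42 FPKM there and 0.832 FPKM at 50 cm.

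ABCA8 was higher at 50 cm, with 0.691 FPKM at 2 cm and 1.77 FPKM at 50 cm (2.56-fold). It was left out of the count of changed members by the 1 FPKM minimum, and with a pseudocount of 1 FPKM its log2 ratio was 0.71, which is not past 2-fold. Where 1 FPKM in either culture was enough, 2 members changed, ABCC2 and ABCA8, against a background of 3.09% (0.739% higher and 2.35% lower). ABCA8 belongs to a cluster of similar genes, among them ABCA6, ABCA9 and ABCA10, which were listed at 0 in both cultures. ABCA7, a phospholipid transporter, had 0.714 FPKM at 2 cm and 0.152 FPKM at 50 cm, a ratio of 0.213. This ratio is that of 7 reads against 36, or of the same multiple of both. At a minimum of 0.1 FPKM in both cultures, 3 of 27 members changed, ABCC2 and ABCA8 upward and ABCA7 downward, against a background of 5.5% (1.72% higher and 3.77% lower). The median log2 ratio of these 27 members was -0.15.

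The remaining members of subfamily A were also under 1 FPKM in both cultures. ABCA1, the cholesterol exporter to apolipoprotein A-I, had 0.428 FPKM at 2 cm and 0.375 FPKM at 50 cm. The ratio of ABCA4, the retinal transporter, was that of 1 read against 2, that of ABCA12, the ceramide transporter of skin, was that of equal reads, and that of ABCA13 was that of 3 reads against 17. The ratios of 76.6% of the features between 0.1 and 1 FPKM lay on such quotients, as did 26.6% of those above 10 FPKM, so a match alone does not give the read numbers. Subfamily G was listed at or near 0 throughout. ABCG4 had 0.0814 FPKM at 2 cm and was listed at 0 at 50 cm, and ABCG1, the multidrug pump ABCG2 and the sterol transporters ABCG5 and ABCG8 were listed at 0 in both.

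The 4 members that act on ribosomes rather than on membranes were all higher at 50 cm and supplied the largest part of the family's RNA. ABCE1, which splits ribosomes after termination, had 56.7 FPKM at 2 cm and 68.1 FPKM at 50 cm (1.20-fold). ABCF1, which acts in translation initiation, had 58.7 and 68.1 FPKM, ABCF2 had 62.4 and 71.0 FPKM, and ABCF3 had 23.05 and 24.5 FPKM, respectively. Their log2 ratios of 0.09 to 0.26 were 0.4 to 1.4 deviations among features of similar level. Abundant features leaned the same way: of all 8751 above 5 FPKM in both cultures, 5000 were higher and 3750 lower. Together the 4 genes made up 39.6% of the summed ABC FPKM at 2 cm and 43.0% at 50 cm. Among the membrane transporters, the summed FPKM of the organic anion pumps was 113 at 2 cm and 124 at 50 cm, of which ABCC2 accounted for 1.03 and 4.73 FPKM. The sum of subfamily A was 12.4 FPKM at 2 cm and 9.23 FPKM at 50 cm.

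**Figure D3:**
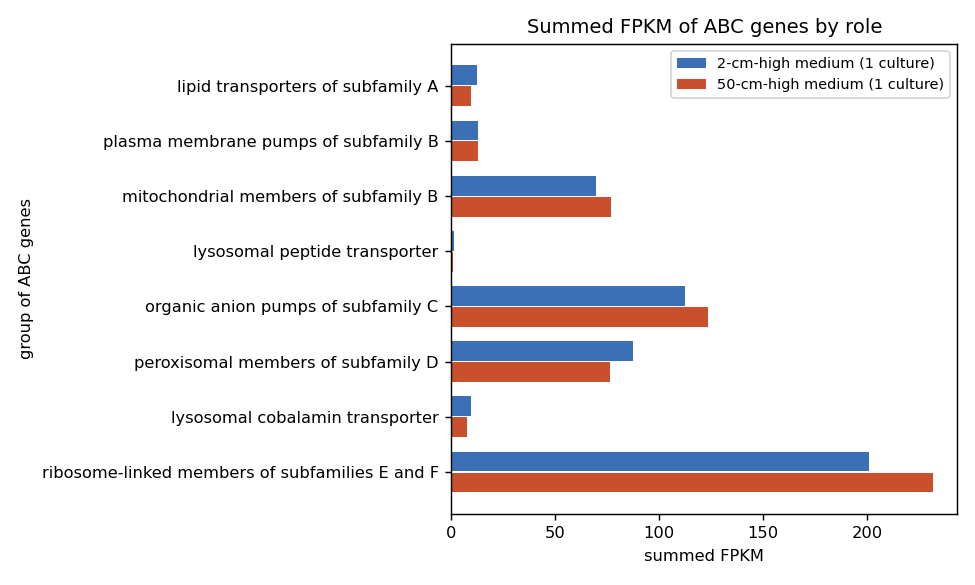
Summed FPKM of the ABC genes by role, with 1 bar per culture and no error bars, since each medium height had 1 culture. The ribosome-linked members sum to 201 FPKM at 2 cm and 232 FPKM at 50 cm, the mitochondrial members and organic anion pumps also have the longer bar at 50 cm, and the other groups drawn have the shorter one.

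Genes that regulate, anchor or supply ABC transporters were examined as lists. The background for each list is all 11057 features above 1 FPKM in both cultures, 5820 higher and 5236 lower. Their median log2 ratio was 0.01, and 1.67% changed more than 2-fold. Of 24 regulators of ABC genes, 19 were above 1 FPKM in both cultures, 7 higher and 12 lower at 50 cm. Their median log2 ratio was -0.19, and 0 changed more than 2-fold. The xenobiotic receptor NR1I2 had 1.70 FPKM at 2 cm and 0.875 FPKM at 50 cm, a ratio of 0.514, and the sterol regulator SREBF2 had 78.4 and 40.2 FPKM, a ratio of 0.513. The related receptor NR1I3 had 1.38 and 1.65 FPKM, and the bile acid receptor NR1H4 had 1.20 and 1.55 FPKM, respectively. NFE2L2, the NRF2 factor of the antioxidant response, was level at 112 and 111 FPKM. NR1I2, NR1I3, NR1H4 and NFE2L2 are known regulators of ABCC2, and their ratios ran from 0.514 to 1.29.

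All 13 scaffold and sorting genes above 1 FPKM in both cultures differed by less than 1.5-fold, compared with 92.8% of all features. EZR and RDX, which tether apical pumps to actin, had 261 and 74.95 FPKM at 2 cm and 332 and 82.7 FPKM at 50 cm, and the PDZ scaffold PDZK1 had 5.49 and 5.19 FPKM. PDZD3, a further PDZ scaffold, missed the minimum with 1.04 FPKM at 2 cm and 0.477 FPKM at 50 cm, a ratio of 0.46. Of 16 conjugating enzymes and glutathione synthesis genes above the minimum, 7 were higher and 9 lower. The member below a ratio of 0.5, against a background of 1.28% of all features, was UGT8, a galactosyltransferase of glycolipid synthesis. It had 2.29 FPKM at 2 cm and 1.01 FPKM at 50 cm. The next lowest ratios were those of the microsomal enzyme MGST3, with 147 FPKM at 2 cm and 85.8 FPKM at 50 cm (0.583), and of SULT1A1, which makes sulfate conjugates, with 113 and 69.9 FPKM (0.619). The highest ratios were those of UGT1A6, which makes glucuronides, with 1.10 and 1.73 FPKM (1.58), and of GCLC, the catalytic subunit of the first step of glutathione synthesis, with 100.4 and 135 FPKM (1.35).

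**Figure D4:**
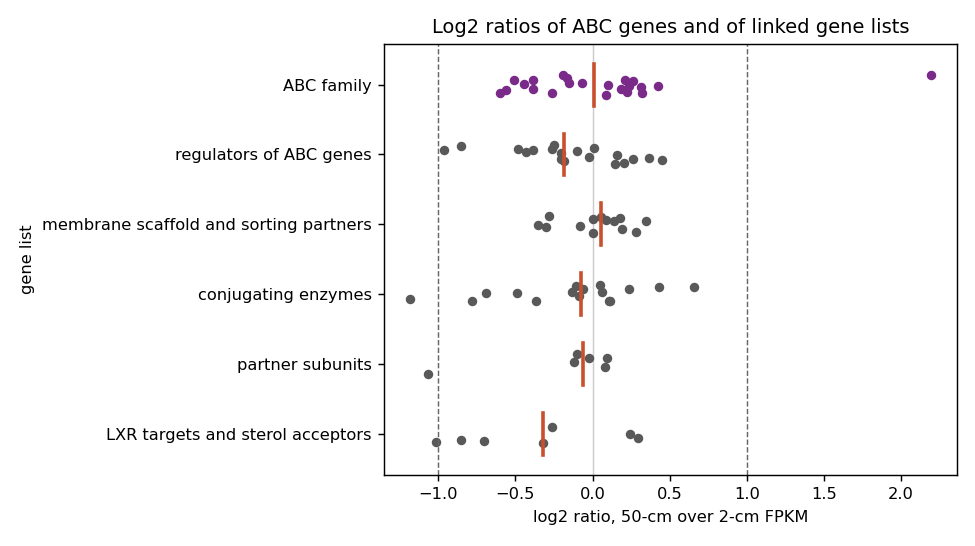
Log2 ratio of 50-cm over 2-cm FPKM for the ABC genes and for 5 lists of linked genes, with 1 point per gene above 1 FPKM in both cultures, red bars at the list medians and dashed lines at a 2-fold change. ABCC2, at 2.196, is the rightmost point, and the 5 lists hold no gene above the upper dashed line. UGT8, PSMB9 and SCD lie below the lower one.

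TAP1 and TAP2, the ABC transporters that load peptides onto class I molecules and whose symbols lie outside the rule, had 10.5 and 12.5 FPKM at 2 cm and 8.60 and 11.2 FPKM at 50 cm, log2 ratios of -0.29 and -0.15. Of the 6 partner subunits above the minimum, PSMB9, an immunoproteasome subunit, changed more than 2-fold (10.7 and 5.12 FPKM, ratio 0.477). The background was 1.67% of all features. CFTR, a chloride channel of subfamily C by descent, had 0.0158 FPKM at 2 cm and was listed at 0 at 50 cm. Among 7 LXR targets and sterol acceptors above the minimum, 2 were higher and 5 lower (median log2 ratio -0.32), and SCD, a desaturase, had the lowest ratio, 0.495. NR1H3 and SREBF1, both lower, are also on the list of regulators, so the lists overlap. Of 17 carriers of organic anions and cations outside the ABC family, 2 were above 1 FPKM in both cultures. SLCO4A1 had 39.3 FPKM at 2 cm and 44.7 FPKM at 50 cm, and SLCO3A1 had 2.39 and 2.57 FPKM.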

How the data were processed

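Per the labels and the methods, libraries were strand-specific mRNA preparations read from a single end over 75 bases. The authors used TopHat (2.0.13) together with Bowtie 2 (version 2.2.3) and SAMtools (version 0.1.19) for mapping to the dog build CanFam3.1, and the deposited FPKM values come from Cuffnorm (2.2.1). The annotation and the scaling between libraries are not given in the sources used here. Depth is unknown, so no counting interval was computed. Each medium height had 1 culture, so no test was run. Ratios were taken without a pseudocount, above 1 FPKM in both cultures, with a change called past 2-fold. The members, roles and gene lists were chosen with earlier results of these data known, ABCC2 in particular. Members above 1 FPKM in either culture were named with both values, except 2 that are counted but not reported here. A RefSeq table of another dog assembly held 44 of the 45 symbols and no sequence, and was used for gene neighbours only. Computation used pandas 2.3.3 and numpy 2.4.6 under Python 3.11.15, and figures matplotlib 3.10.9. The scripts were tested on simulated data with planted changes far past 2-fold and a smaller spread than in these data. That test does not show how calls fare at the spread seen here. Alternatives were other FPKM minima, pseudocounts and scalings and a 1.5-fold limit.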

Additional observations from a re-analysis of the deposited data

How the results depend on the processing

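With 1 culture per medium height, replicate error is unknown, no replicate could be left out, and low values rest on unknown read numbers. No paired analysis was possible because the groups share no replicate pairs and no test was run. The number of changed ABC genes, 1 as reported, was 2 (2 higher, 0 lower) with 1 FPKM required in at least one culture, 3 (2 higher, 1 lower) at 0.1 FPKM in both, 4 (2 higher, 2 lower) above 0 in both and 0 at 5 FPKM, where ABCC2 was not tested. The background was 3.09% of all features with 1 FPKM in at least one culture and 5.5% at 0.1 FPKM in both. It was not computed above 0 or at 5 FPKM, so the counts there have no share beside them. A 1.5-fold limit gave 2 (1 higher, 1 lower) of the 22 members, while 92.8% of all features differed by less than 1.5-fold. The median log2 ratio of ABC genes, 0.01 as reported, was -0.15 at 0.1 FPKM, -0.16 above 0 and 0.10 at 5 FPKM. The log2 ratio of ABCC2 was 1.496 with a pseudocount of 1 FPKM, and 2.09 to 2.37 under the other pseudocount and the scalings. The numbers of higher and lower members of each subfamily were the same under both pseudocounts and the 3 scalings. The pseudocounts could not alter them, since adding the same value in both cultures keeps the sign of a log2 ratio. Recentring and rescaling shift all log2 ratios alike, here by less than the ABC ratio nearest 0, -0.07 for ABCB10. Subfamily A had 1 higher and 3 lower with 1 FPKM in at least one culture, and 2 higher and 7 lower above 0. The median log2 ratio of subfamily C was 0.08 at 1 FPKM in both cultures, or -0.15 without ABCC2. With ABCC2 it was -0.15 at 0.1 FPKM and above 0. There 3 members were higher and 4 lower. The ABC median lay below 0 under all 3 scalings, at -0.0044 after recentring and -0.02 under the other 2. For all features the median was 0 after recentring, 0.01 under quantile normalization and -0.02 after rescaling to the same summed FPKM. It was 0.002 at 0.1 FPKM in both cultures, 0.004 above 0 and 0.04 at 5 FPKM.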

Other observations

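Values at 2 cm and at 50 cm are for the cultures of those medium heights. Neighbouring genes were looked up for ABCC2, ABCA7, ABCA8, ABCB1, ABCC3 and ABCC4 in the RefSeq annotation of another dog assembly. On one side of ABCC2 lie CUTC and COX15. CUTC had 5.22 FPKM at 2 cm and 7.34 FPKM at 50 cm (1.41-fold), and COX15, a heme A synthesis gene, had 20.01 and 31.99 FPKM (1.60-fold). On the other side lie DNMBP, with 9.32 and 8.23 FPKM (ratio 0.883), and CPN1, which was listed at 0 in both. None of these neighbours passed 2-fold. The genes beside ABCA7, ABCB1, ABCC3 and ABCC4 that were above 1 FPKM in both cultures had ratios of 0.882 to 1.252. No listed gene beside ABCA8 was above 1 FPKM. SLC51B, a subunit of the basolateral organic solute carrier, was low, with 0.573 FPKM at 2 cm and 0.157 FPKM at 50 cm.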
